A study of Homo sapiens with 6 samples.

Results

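The 9 genes described here belong to the ATF, CHOP and C/EBP stress response and were read from the gene table of cells in which RNF26 was knocked down. These are ATF3, ATF4, ATF5, DDIT3 (which encodes CHOP), TRIB3, CEBPA, CEBPB, CEBPD and CEBPG, and they were taken by name. All 9 of 9 were found among the 61541 genes of the table, and all 9 passed the filter on low counts. The series has 6 RNA sequencing libraries of cells labelled A498, a human line from a clear cell renal carcinoma. In 3 of them (shRNF26) a short hairpin RNA was directed at RNF26, an E3 ubiquitin ligase of the endoplasmic reticulum membrane, and the other 3 (shcontrol) are the labels' control for that hairpin. Both groups went through a step that the labels call transfection infection, and both were kept in RPMI-1640 medium containing fetal bovine serum. The labels give neither the number of hairpins or clones nor whether replicates were separate cultures. The p-values therefore measure a spread between libraries that may be technical.

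The libraries held 16682871 to 17824141 gene counts in the shRNF26 group and 16915790 to 18021718 in the shcontrol group. RNF26 itself had 1216, 1274 and 1175 counts in the shRNF26 libraries, against 35331, 31901 and 31928 in the shcontrol libraries. Its mean CPM in shRNF26 cells was 3.48% of that in shcontrol cells. Marker genes went against the label of the cells. Among 18 markers of kidney and clear cell carcinoma, 5 averaged at least 1 CPM (counts scaled to library size), and EMX2 was at 0 in all 6 libraries. These 18 summed to 24.2 to 27.1 CPM in the shRNF26 libraries and 27.7 to 33.0 CPM in the shcontrol libraries. They did not all move with the sum, as EGLN3 averaged 15.0 CPM in shRNF26 cells and 8.82 CPM in shcontrol cells. Of 10 squamous keratinocyte markers 9 reached that level, with summed levels of 1350 to 1420 CPM in the shRNF26 libraries and 1710 to 1800 CPM in the shcontrol libraries. These markers moved in both directions. KRT6A averaged 261 CPM in shRNF26 cells and 433 CPM in shcontrol cells, and KRT17 285 and 511 CPM. SPRR2A, DSG3 and KRT14 also had lower means in shRNF26 cells. Higher means there were those of TP63 (194 against 173 CPM), KRT5 (623 against 583 CPM) and SERPINB3 (6.08 against 2.05 CPM). The part of these marker shifts in the results for the stress factors was not tested. Of 6 leukocyte markers only CD14 reached 1 CPM, and the sum was 1.69 to 1.90 CPM in the shRNF26 libraries and 1.67 to 2.13 CPM in the shcontrol libraries. Of 4 endothelial markers only PECAM1 did, and the sum was 4.73 to 6.75 CPM in the shRNF26 libraries and 5.48 to 5.80 CPM in the shcontrol libraries. Of 6 fibroblast markers only COL1A1 reached 1 CPM, and the summed level was 81.2 to 88.4 CPM in the shRNF26 libraries and 54.9 to 65.5 CPM in the shcontrol libraries.

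In the integrated stress response, kinases that sense endoplasmic reticulum stress, amino acid shortage, viral RNA or haem shortage phosphorylate the translation factor eIF2. General protein synthesis then slows while ATF4 is translated, through short upstream reading frames in its mRNA. ATF4 and the C/EBP proteins are basic leucine zipper factors that bind DNA as pairs, and ATF4 with a C/EBP partner recognises a composite C/EBP-ATF element. ATF4 raises transcription of DDIT3, ATF3 and TRIB3, and TRIB3 protein in turn binds ATF4 and CHOP and damps them. C/EBP beta and delta are also known as factors of the acute-phase and cytokine response. Gene counts measure the transcripts and not this translational step.

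Promoter windows were read from RefSeq (GRCh38.p14) for 8 of the 9 genes, 17 windows in all, each with 250 bases before and 50 bases from an annotated start onward. The windows below belong to the genes that fell and that held a searched motif. In DDIT3 the capitals mark an AP-1 match and a match to the endoplasmic reticulum stress element, in CEBPG the composite C/EBP-ATF element, in ATF3 a TATA match and, read on the other strand, a C/EBP match, and in ATF4 and CEBPB a TATA match. The windows are chr12:57520465-57520764 on the minus strand (DDIT3), chr19:33373863-33374162 on the plus strand (CEBPG), chr1:212614768-212615067 on the plus strand (ATF3), chr22:39520309-39520608 on the plus strand (ATF4) and chr20:50190580-50190879 on the plus strand (CEBPB).
DDIT3: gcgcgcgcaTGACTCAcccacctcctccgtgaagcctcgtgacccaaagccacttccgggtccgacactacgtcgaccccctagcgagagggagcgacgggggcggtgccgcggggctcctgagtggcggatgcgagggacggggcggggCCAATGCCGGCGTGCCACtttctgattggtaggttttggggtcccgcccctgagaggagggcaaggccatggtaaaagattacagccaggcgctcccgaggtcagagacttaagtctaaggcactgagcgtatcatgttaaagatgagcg
CEBPG: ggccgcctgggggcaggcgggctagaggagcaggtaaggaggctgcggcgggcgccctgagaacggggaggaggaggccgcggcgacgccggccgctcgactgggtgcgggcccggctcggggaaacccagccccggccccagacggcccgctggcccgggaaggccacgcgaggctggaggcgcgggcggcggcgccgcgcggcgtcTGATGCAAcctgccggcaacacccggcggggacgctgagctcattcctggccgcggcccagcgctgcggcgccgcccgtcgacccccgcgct
ATF3: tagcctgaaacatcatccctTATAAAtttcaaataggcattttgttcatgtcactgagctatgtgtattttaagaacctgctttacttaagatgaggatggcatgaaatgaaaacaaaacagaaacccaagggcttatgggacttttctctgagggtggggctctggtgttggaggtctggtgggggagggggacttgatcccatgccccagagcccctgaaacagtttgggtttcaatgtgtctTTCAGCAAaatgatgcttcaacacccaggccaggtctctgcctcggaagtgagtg
ATF4: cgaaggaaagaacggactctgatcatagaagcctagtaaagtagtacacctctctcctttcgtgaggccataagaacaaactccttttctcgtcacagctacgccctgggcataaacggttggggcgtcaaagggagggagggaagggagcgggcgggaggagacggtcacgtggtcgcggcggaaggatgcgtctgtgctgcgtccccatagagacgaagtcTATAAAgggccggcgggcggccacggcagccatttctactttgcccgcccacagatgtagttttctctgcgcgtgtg
CEBPB: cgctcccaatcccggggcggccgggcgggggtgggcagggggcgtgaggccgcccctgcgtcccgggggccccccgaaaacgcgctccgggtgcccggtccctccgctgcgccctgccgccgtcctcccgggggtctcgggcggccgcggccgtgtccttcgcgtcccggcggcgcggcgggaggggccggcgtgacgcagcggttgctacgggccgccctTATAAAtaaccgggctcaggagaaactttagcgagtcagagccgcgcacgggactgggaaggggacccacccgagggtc

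Motifs were searched by their letters on both strands, and no matches overlapped in these windows. The endoplasmic reticulum stress element (CCAAT and CCAC with 9 bases of any kind between them) was found in both DDIT3 windows, which start 3 bases apart. In the window printed above it lies from -100 to -83 relative to the start, and 0.316% of all 34796 windows hold it. The composite element (TGATGCAA) was found in 1 of the 2 CEBPG windows from -42 to -35, and 0.871% of all windows hold it. The AP-1 motif (TGANTCA) matched in DDIT3 and ATF5 (7.73% of all windows), and the C/EBP motif (TTGCNNAA) matched in ATF3 and ATF5 (10.5%). The TATA motif (TATAAA) matched in ATF3, ATF4, CEBPA and CEBPB (11.6% of all windows). It lay from -27 to -22 in the ATF4 window printed above, from -30 to -25 in CEBPA and from -29 to -24 in CEBPB. In ATF3 it lay farther from the start, from -230 to -225. The C/EBP match of ATF3 spanned the annotated start, from -5 to 3. The other ATF3 window, chr1:212565157-212565456, belongs to a different annotated start and held no searched motif. Which ATF3 start these cells use was not tested. The cyclic AMP response element (TGACGTCA) matched in none of the 17 windows, against 1.84% of all windows. These matches describe letters in a window and not bound sites.

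Transcripts of most of these factors were lower in cells with RNF26 knocked down. ATF3 fell to 14.7% of its control level, DDIT3 to 25.5%, TRIB3 to 44% and ATF4 to 50.4%. CEBPB and CEBPG fell less, CEBPA and CEBPD rose, and ATF5 did not pass the test. Of the 9 genes 6 were called lower and 2 higher by the quasi-likelihood test of edgeR, with p-values adjusted over all 14766 tested genes at a threshold of 0.05. Over all tested genes 41.4% were called in either direction, 22.6% lower and 18.9% higher, so the 2 that rose are close to the background share. A fall of at least 2-fold was called for 3 of the 9, against 2.4% of all tested genes. ATF4, at 1.99-fold lower, fell just short of that cut, and its log2 fold change ran down to -1.01 over alternative fits. The median log2 fold change of the 9 was -0.46, beside 0.01 over all tested genes. The members were chosen with results of these data known, so these counts are a description.

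**Figure D1:**
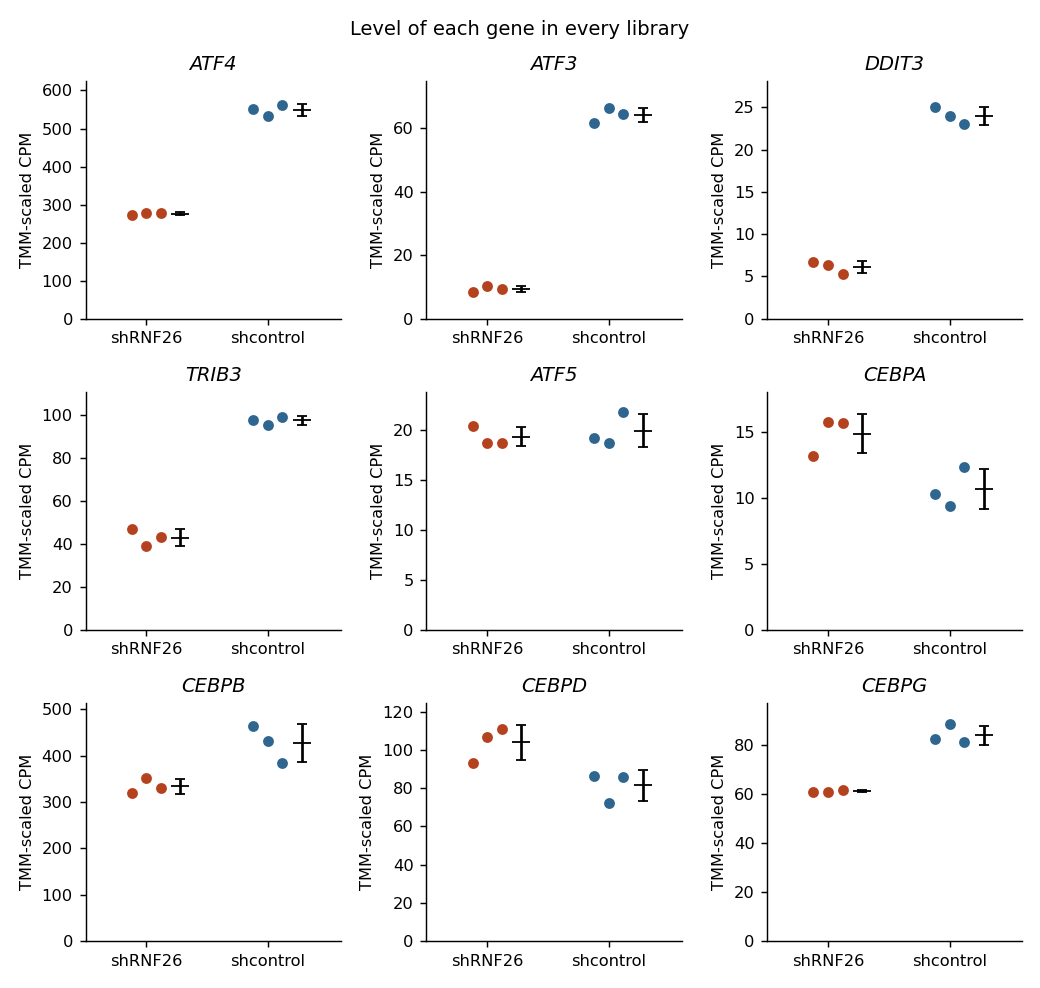
Levels of the 9 genes in every library, in TMM-scaled CPM on linear axes from 0. Points are libraries, and the bar beside them gives the mean and SD of 3. The shRNF26 points of ATF3, ATF4, DDIT3, TRIB3, CEBPB and CEBPG lie below all shcontrol points, those of CEBPA and CEBPD above them, and those of ATF5 among them.

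ATF4 (ENSG00000128272), the factor whose translation rises when eIF2 is phosphorylated, had 273, 279 and 278 CPM in the shRNF26 libraries, against 551, 533 and 563 CPM in the shcontrol libraries. Levels here are CPM scaled by the trimmed mean of M values (TMM). The groups did not overlap, as holds for 25.9% of tested genes on the lower side. Its mean was 276 ± 3.49 CPM in shRNF26 cells and 549 ± 15.0 CPM in shcontrol cells (SD, n = 3 each), or 50.4% of the control level. On the log2 scale it changed by -0.99 (SE 0.037), with an adjusted p of 6.87e-14 by the quasi-likelihood test of edgeR, and this change ranked 367 of 14766 from the lowest. Bulk counts cannot tell fewer expressing cells from less RNA per cell.

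ATF3 (ENSG00000162772), a stress-induced factor that pairs with JUN and with other ATF proteins, fell the most of the 9. It had 8.50, 10.3 and 9.42 CPM in the shRNF26 libraries, against 61.7, 66.2 and 64.4 CPM in the shcontrol libraries. Every shRNF26 value lay far below every shcontrol value. The counts behind them were 151, 189 and 162 in shRNF26 cells and 1074, 1088 and 1057 in shcontrol cells. ATF3 was 6.81-fold lower, a log2 fold change of -2.77 (SE 0.078, edgeR quasi-likelihood adjusted p = 7.85e-16), which ranked 31 of 14766 from the lowest. No other gene overlaps ATF3 in GENCODE 29.

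DDIT3 (ENSG00000175197) encodes CHOP, a C/EBP relative that ATF4 induces and that promotes cell death under prolonged endoplasmic reticulum stress. It had 6.75, 6.30 and 5.29 CPM in the shRNF26 libraries, from 120, 116 and 91 counts, against 25, 24 and 23 CPM in the shcontrol libraries, from 436, 395 and 377 counts. The groups stood well apart. DDIT3 was 3.92-fold lower, a log2 fold change of -1.97 (SE 0.11, edgeR quasi-likelihood adjusted p = 1.87e-11), which ranked 88 of 14766 from the lowest. MARS1 overlaps DDIT3 on the opposite strand with 2072 to 2278 counts in shRNF26 cells and 2169 to 2595 in shcontrol cells. MARS1 had a log2 fold change of -0.24 (edgeR quasi-likelihood adjusted p = 0.000851), smaller than that of DDIT3. The kit marks strand, but the sources used here do not say whether the counting used it.

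TRIB3 (ENSG00000101255), a pseudokinase that ATF4 and CHOP induce and that restrains both, had 46.7, 39.0 and 43.1 CPM in the shRNF26 libraries. Its shcontrol libraries had 97.8, 95.5 and 99.3 CPM, all above every shRNF26 value. TRIB3 was 2.27-fold lower, a log2 fold change of -1.18 (SE 0.061, edgeR quasi-likelihood adjusted p = 8.95e-12), which ranked 264 of 14766 from the lowest. No gene overlaps TRIB3 or ATF4 in GENCODE 29.

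ATF5 (ENSG00000169136), an ATF4-like factor known from the mitochondrial unfolded protein response, had 20.4, 18.7 and 18.7 CPM in the shRNF26 libraries, against 19.2, 18.7 and 21.8 CPM in the shcontrol libraries. The groups overlapped. On the log2 scale the difference was -0.04, with a 95% interval of -0.22 to 0.13 and an adjusted p of 0.718 by the quasi-likelihood test of edgeR. The sign turned to 0.05 with total-count scaling and to 0.01 with upper-quartile scaling. That interval excludes falls of the size seen for its relative ATF4. NUP62, which overlaps ATF5 on the opposite strand, had 4022 to 4227 counts in shRNF26 cells and 3631 to 4250 in shcontrol cells. IL4I1 overlaps it on that strand too, with 34 to 67 counts in shRNF26 cells and 25 to 31 in shcontrol cells. It had a log2 fold change of 0.83 (edgeR quasi-likelihood adjusted p = 0.0163). ATF5 itself had 322 to 362 counts in shRNF26 cells and 307 to 358 in shcontrol cells, and the part of shared reads in them was not tested.

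The C/EBP genes moved in both directions. CEBPB (ENSG00000172216), which encodes a factor of the acute-phase response and a partner of ATF4, had 320, 352 and 331 CPM in the shRNF26 libraries, against 465, 432 and 384 CPM in the shcontrol libraries. The lowest shcontrol library was replicate 3, and it still lay above the highest shRNF26 library. CEBPB fell by 0.35 on the log2 scale (SE 0.055, edgeR quasi-likelihood adjusted p = 3.79e-05). CEBPG (ENSG00000153879) encodes a short C/EBP protein without the usual activation domain that pairs with ATF4. It had 60.8, 60.9 and 61.5 CPM in the shRNF26 libraries and 82.1, 88.3 and 81.1 CPM in the shcontrol libraries. CEBPG fell to 72.8% of its control level, a log2 fold change of -0.46 (SE 0.052, edgeR quasi-likelihood adjusted p = 9.99e-07).

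CEBPD (ENSG00000221869) encodes the C/EBP delta factor, which cytokines induce. It had 93.3, 107 and 111 CPM in the shRNF26 libraries, against 86.6, 72.1 and 86.1 CPM in the shcontrol libraries. All shRNF26 values were higher, by a narrow margin in replicate 1, and 24.2% of tested genes separate this way. CEBPD rose by 0.35 on the log2 scale (SE 0.070, edgeR quasi-likelihood adjusted p = 0.000573). CEBPA (ENSG00000245848) encodes C/EBP alpha, a factor of differentiation in liver, fat and myeloid cells. It had 13.2, 15.8 and 15.7 CPM in the shRNF26 libraries, from 235, 291 and 270 counts, and 10.3, 9.38 and 12.4 CPM in the shcontrol libraries, from 179, 154 and 203 counts. The groups of CEBPA were also close without overlapping. CEBPA rose by 0.48 on the log2 scale (SE 0.12, edgeR quasi-likelihood adjusted p = 0.00255). CEBPA and CEBPG are direct protein-coding neighbours on chromosome 19 in RefSeq (GRCh38.p14), on opposite strands, and changed in opposite directions. The coding transcripts of CEBPA, CEBPB and CEBPD have 1 exon in GENCODE 29, those of CEBPG have 2, and those of the other 5 genes have 2 to 5.

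**Figure D2:**
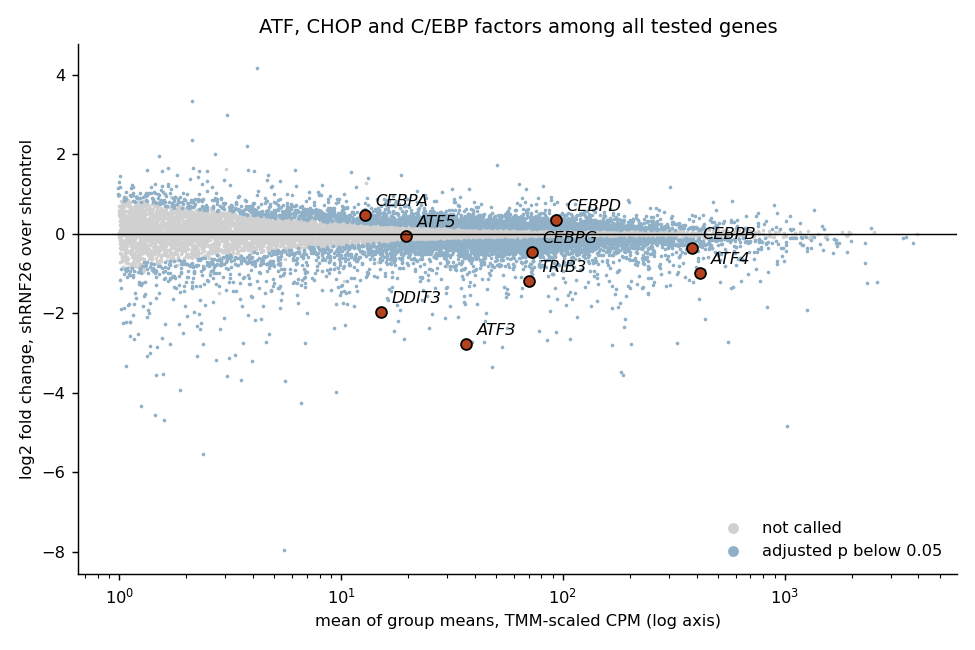
Log2 fold change of shRNF26 over shcontrol against the mean level (TMM-scaled CPM, log axis) for the 14766 tested genes, with the 9 genes named. Grey points were not called and blue points had an adjusted p below 0.05. ATF3 at -2.77 and DDIT3 at -1.97 lie far below the zero line, and ATF5 at -0.04 lies on the zero line.

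Per kilobase of annotated exon, the order of the levels changed between the groups. In shRNF26 cells CEBPB came first with 171 ± 8.26 CPM per kb, before ATF4 with 110 ± 1.39, CEBPD with 47.6 ± 4.25, TRIB3 with 14.8 ± 1.32 and CEBPG with 13.8 ± 0.0839. ATF5 with 7.49 ± 0.367, CEBPA with 5.67 ± 0.556, DDIT3 with 4.68 ± 0.572 and ATF3 with 3.70 ± 0.349 CPM per kb followed. TRIB3 and CEBPG overlapped in that order, as did CEBPA and DDIT3, while the other neighbours did not. In shcontrol cells ATF4 (218 ± 5.98 CPM per kb) and CEBPB (218 ± 20.7) overlapped at the top. CEBPD (37.5 ± 3.78) and TRIB3 (33.7 ± 0.663) overlapped next, ATF3 followed at 25.3 ± 0.902, and CEBPG (19.0 ± 0.880) overlapped DDIT3 (18.4 ± 0.797). ATF5 (7.73 ± 0.650) and CEBPA (4.06 ± 0.582) were lowest. ATF3 was thus last of 9 in shRNF26 cells and in the middle of the order in shcontrol cells. These levels use the exon union of GENCODE 29, which need not be the transcripts these cells make.

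Within the 4 C/EBP genes, CEBPB took most of the summed level per kb in both groups. Its share was 71.8% ± 1.15 in shRNF26 cells and 78.2% ± 2.07 in shcontrol cells (SD, n = 3 each). The share of CEBPD was 20% ± 1.12 in shRNF26 cells and 13.5% ± 1.67 in shcontrol cells, and its lowest shRNF26 value of 19.0% lay above its highest shcontrol value of 15.3%. CEBPA took 2.38% ± 0.130 in shRNF26 cells and 1.47% ± 0.301 in shcontrol cells. CEBPG took 5.83% ± 0.284 in shRNF26 cells and 6.84% ± 0.553 in shcontrol cells. The summed level was 238 ± 11.9 CPM per kb in shRNF26 cells and 279 ± 20.5 in shcontrol cells.

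Ratios of 2 genes within a library do not depend on how libraries are scaled, and 8 pairs were compared by an exact two-sided permutation test. With 3 libraries against 3 the smallest p of this exact test is 0.1, or 0.11 after adjustment over the 8 pairs, so no pair could pass 0.05. ATF3 per ATF4 count was 0.0312, 0.0368 and 0.0339 in the shRNF26 libraries, against 0.112, 0.124 and 0.114 in the shcontrol libraries. DDIT3 per ATF4 count was 0.0248, 0.0226 and 0.0191 in the shRNF26 libraries, against 0.0455, 0.0451 and 0.0408 in the shcontrol libraries. Both ratios were lower in every shRNF26 library, at 0.291 and 0.505 times their control means, so ATF3 and DDIT3 fell by more than ATF4 did. TRIB3 followed ATF4 more closely, with 0.171, 0.140 and 0.155 TRIB3 counts per ATF4 count in shRNF26 cells and 0.177, 0.179 and 0.176 in shcontrol cells. The groups did not overlap in any of these 3 ratios, for TRIB3 per ATF4 by a narrow margin (0.171 in shRNF26, 0.176 in shcontrol). Of single tested genes 25.9% separated on the lower side and 24.2% on the higher side, and no such share was computed for ratios. ATF5 per ATF4 count was 1.93 times its control mean and TRIB3 per DDIT3 count 1.74 times. CEBPA per CEBPB count was 1.76 times its control mean and CEBPD per CEBPB count 1.61 times. CEBPG per CEBPB count was 0.183 ± 0.00875 in shRNF26 cells and 0.197 ± 0.0183 in shcontrol cells, and the groups overlapped (exact permutation p = 0.3).

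**Figure D3:**
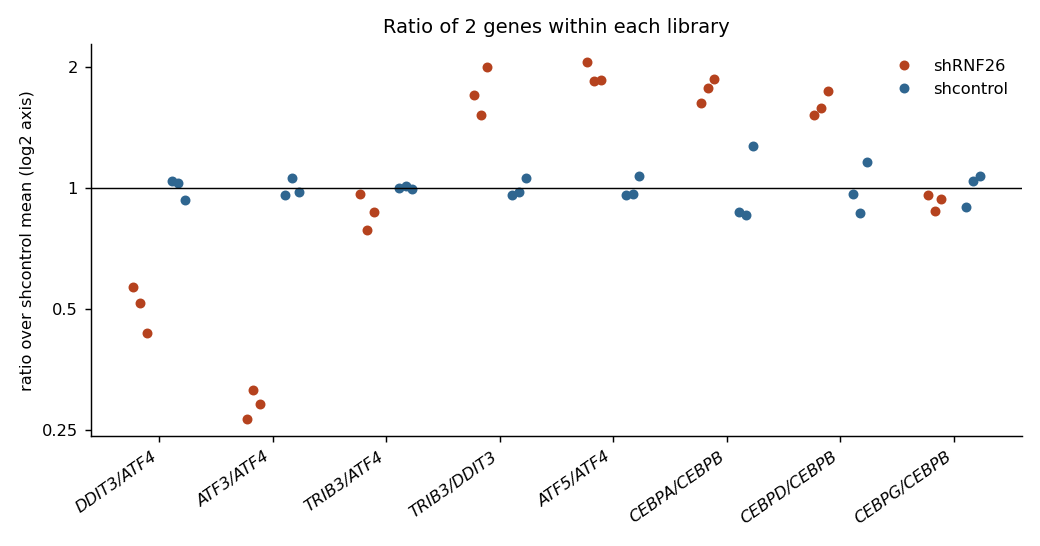
Ratio of the counts of 2 genes in each library, divided by the mean ratio of the 3 shcontrol libraries, on a log2 axis. Points are libraries, with shRNF26 left of shcontrol in each pair. The shRNF26 points of ATF3/ATF4 and DDIT3/ATF4 lie below all shcontrol points, those of ATF5/ATF4 and TRIB3/DDIT3 above them, and those of CEBPG/CEBPB among them.

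Relatives of these factors were called in both directions, the higher calls at about the background share. Of 19 ATF and CREB relatives 14 were tested, with 7 called lower, 3 higher and 4 neither (median log2 fold change -0.25), beside 22.6% lower and 18.9% higher over all tested genes. CREB5 fell to 5.50 ± 0.556 CPM in shRNF26 cells, against 15.5 ± 1.93 CPM in shcontrol cells (log2 fold change -1.49). JDP2, which dimerises with JUN and ATF factors and represses transcription, fell by 0.86 on the log2 scale. BATF3 fell by 0.76 and CREB3L2, a membrane-bound relative of ATF6, fell by 0.43. The 3 that rose were CREB3L4 (0.37), ATF7 (0.35) and CREBZF (0.11). Their number was 5 with total-count scaling, which added ATF6 (0.15) and CREB1 (0.18), and 1 without shRNF26 replicate 1, where CREB3L4 was left. The call of CREBZF was also lost without shcontrol replicate 1 or 2, without shRNF26 replicate 3 and without the filter on low counts. ATF2 did not pass, but it was called lower without shRNF26 replicate 3 (-0.26). CREB3L1, CREB3L3 and BATF2 were below the filter, and ATF6B and BATF were listed at 0 in all 6 libraries. Of the 20 protein-coding neighbours of ATF6B in RefSeq (GRCh38.p14) 14 were listed at 0 too, against 1 of the 20 neighbours of BATF and 14.6% of 19146 protein-coding genes matched. The 0 of ATF6B is therefore given as a listing and not as a level of expression.

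Among 4 tested C/EBP and PAR relatives, NFIL3 fell (log2 fold change -0.48), DBP rose (0.44), and CEBPZ (-0.14) and TEF (-0.02) did not pass. The call of DBP was lost without shcontrol replicate 2 (0.41) or shRNF26 replicate 2 (0.35). CEBPZ was called lower without shcontrol replicate 3 (-0.19). TRIB1, a Tribbles pseudokinase that brings C/EBP alpha to the ubiquitin ligase COP1, had 60.8 ± 3.57 CPM in shRNF26 cells and 104 ± 4.85 CPM in shcontrol cells (log2 fold change -0.78). TRIB2 (0.08) did not pass, but it was called higher with total-count or upper-quartile scaling.

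Of 7 tested partners of Tribbles proteins and of ATF4 turnover, 1 was called lower and 2 higher, about the background shares of 22.6% and 18.9%. EGLN3, a prolyl hydroxylase reported to bind ATF4, rose to 15.0 ± 0.442 CPM in shRNF26 cells, against 8.82 ± 1.29 CPM in shcontrol cells (log2 fold change 0.76). The call of DDB1 (0.11), an adaptor of CUL4 ubiquitin ligases, was lost without shcontrol replicate 2 or shRNF26 replicate 1. FBXW11, an F-box protein that recognises phosphorylated ATF4, fell by 0.19 on the log2 scale, but this call was lost with total-count scaling (-0.10). COP1 (0.10), BTRC (0.05), CUL4A (-0.06) and AKT1 (0.04) did not pass, although COP1 was called higher with total-count scaling (0.19).

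**Figure D4:**
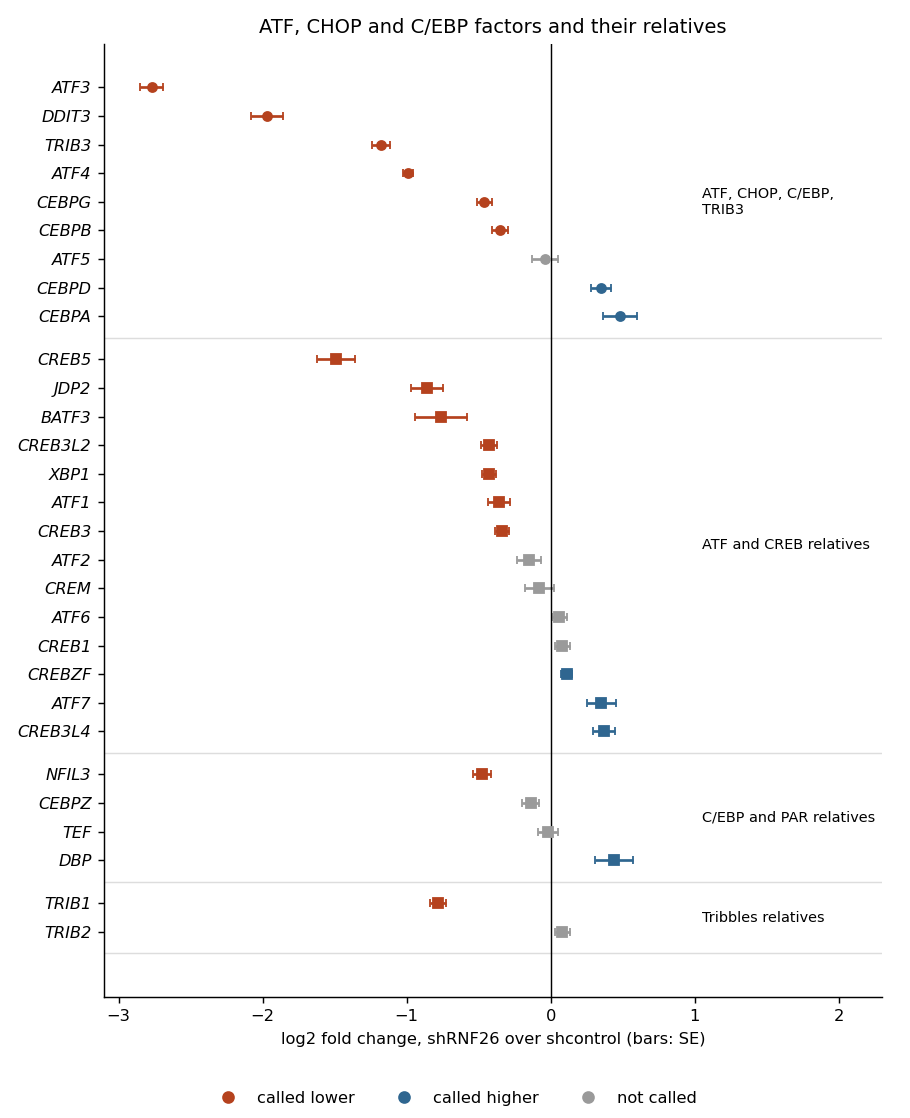
Log2 fold change of shRNF26 over shcontrol for the 9 genes (circles) and their tested relatives (squares), with SE bars. Red marks genes called lower, blue genes called higher and grey genes not called at an adjusted p of 0.05. Of the 29 genes drawn, ATF3 at -2.77, DDIT3 at -1.97 and CREB5 at -1.49 lie farthest left. TRIB2, grey at 0.08, is called higher with total-count or upper-quartile scaling, as is CREB1, ATF6 is with total-count scaling alone, and ATF5 changes sign with both.

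Genes of the JUN and FOS families, listed as AP-1 partners, were mostly lower too. Of 7 tested, 6 fell and FOSL2 did not pass (log2 fold change -0.02), with a median of -1.32, beside 22.6% called lower over all tested genes. JUN fell to 146 ± 6.09 CPM in shRNF26 cells, against 967 ± 71.1 CPM in shcontrol cells (log2 fold change -2.73), close in size to ATF3. FOS (-2.36), FOSL1 (-2.13) and FOSB (-1.32) had the next largest falls on the log2 scale. The JUN relatives JUNB (-0.32) and JUND (-0.27) fell less.

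Upstream of ATF4 stand the genes for eIF2, its kinases, its exchange factor and its phosphatase subunits. All 16 were tested, of which 9 were called lower, 2 higher and 5 neither (median log2 fold change -0.24). The background shares were 22.6% lower and 18.9% higher. The number of the 16 called higher ran from 0 to 6 across the alternatives. PPP1R15A, the inducible subunit that directs phosphatase to eIF2 and an ATF4 and CHOP target itself, fell to 84.6 ± 4.48 CPM in shRNF26 cells, against 567 ± 15.0 CPM in shcontrol cells (log2 fold change -2.74). Its constitutive counterpart PPP1R15B fell by 0.50 on the log2 scale, the kinase inhibitor DNAJC3 fell by 0.54 and the eIF2 alpha gene EIF2S1 fell by 0.43. Of the 4 kinases, EIF2AK3 (PERK) fell by 0.35 and EIF2AK2 (PKR) fell by 0.28, EIF2AK1 (HRI) rose (0.12), and EIF2AK4 (GCN2) did not pass (0.08). The call of EIF2AK1 was lost without shcontrol replicate 2 (0.09), shRNF26 replicate 1 (0.11) or shRNF26 replicate 3 (0.10) and without the filter on low counts (0.12), and EIF2AK4 was called higher with total-count (0.17) and upper-quartile (0.13) scaling.

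Listed genes of the other arms of the unfolded protein response were lower as well. The list leaves out the transcription factors themselves, of which XBP1 fell by 0.43 on the log2 scale and ATF6 did not pass (0.06). It holds the gene of the sensor IRE1, ERN1 (-0.43), beside downstream genes. All 13 tested genes listed for the ATF6 and IRE1-XBP1 arm were called lower, beside 22.6% of all tested genes (median log2 fold change -0.60). The count was 12 with total-count or upper-quartile scaling and without shcontrol replicate 3, shRNF26 replicate 1 or shRNF26 replicate 2. The call lost was that of EDEM1 (-0.15), which acts in disposal of misfolded glycoproteins and stood at -0.06 with total-count scaling. HERPUD1 (-2.47) and DNAJB9 (-2.11), which act in disposal and folding of endoplasmic reticulum proteins, HSPA5 (-1.25), the main chaperone there, and HYOU1 (-0.69) had the largest changes.

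Of 35 ATF4 target genes 33 were tested, with a median log2 fold change of -0.40. Of these 23 were called lower, 1 higher (the arginine transporter gene SLC7A1, 0.29) and 9 neither, beside background shares of 22.6% and 18.9%. ADM2 had 0.901 ± 0.129 CPM in shRNF26 cells and 4.80 ± 0.185 CPM in shcontrol cells (log2 fold change -2.40). STC2, a secreted glycoprotein gene, fell by 1.35 on the log2 scale, and CHAC1, which encodes a glutathione-degrading enzyme, fell by 1.33. CARS1 (-1.25), a tRNA synthetase gene, rested partly on 1 library. Its value was -0.76 without shcontrol replicate 1, and its call was lost in a robust fit. ASNS, the asparagine synthetase gene often used to read ATF4 activity, was at 1.54 ± 0.341 CPM in shRNF26 cells and 2.39 ± 0.359 CPM in shcontrol cells and did not pass (edgeR quasi-likelihood adjusted p = 0.0547). It was called lower by limma (-0.42), with a replicate block (-0.64) and without shRNF26 replicate 3 (-0.79). SLC7A5 (0.04) and PHGDH (0.03), genes of amino acid transport and serine synthesis, did not pass either, but both were called higher with total-count scaling (0.13 and 0.12), and SLC7A5 also with upper-quartile scaling (0.10). Total-count scaling raised the number of targets called higher to 4.

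Against a background share of 22.6% called lower, 4 of 7 CHOP target genes fell and 3 did not pass (median log2 fold change -0.29). Beside PPP1R15A these were the pro-apoptotic BBC3 (-0.79), the death receptor gene TNFRSF10B (-0.34) and the oxidase gene ERO1A (-0.29). BCL2L11 (0.06), BCL2 (-0.01) and TENM4 (-0.03) did not pass.

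C/EBP acute-phase and cytokine targets split. Of 15, 10 were tested, and 6 fell, 3 rose and LCN2 did not pass (0.03), with a median log2 fold change of -0.62. Background shares were 22.6% lower and 18.9% higher. LCN2 was called higher with total-count (0.12) and upper-quartile (0.08) scaling. IL6 fell to 0.791 ± 0.176 CPM in shRNF26 cells, against 10.4 ± 0.786 CPM in shcontrol cells (log2 fold change -3.71). CXCL8 (-1.28), CSF3 (-1.22) and IL1B (-0.92), all genes of secreted inflammatory signals, fell as well. The 3 that rose were SAA2 (0.78), C3 (0.45) and SAA1 (0.23), genes of acute-phase and complement proteins. SAA1 and SAA2 are near-identical copies, and reads common to both make their separate counts uncertain. In the mitochondrial unfolded protein response 3 of 6 tested genes fell, against the same background share of 22.6%. These were YME1L1 (-0.26), HSPA9 (-0.25) and CLPP (-0.20), while HSPD1, HSPE1 and LONP1 did not pass. The call of CLPP was lost with total-count scaling (-0.11) and without shcontrol replicate 1 (-0.14) or shRNF26 replicate 3 (-0.17).

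**Figure D5:**
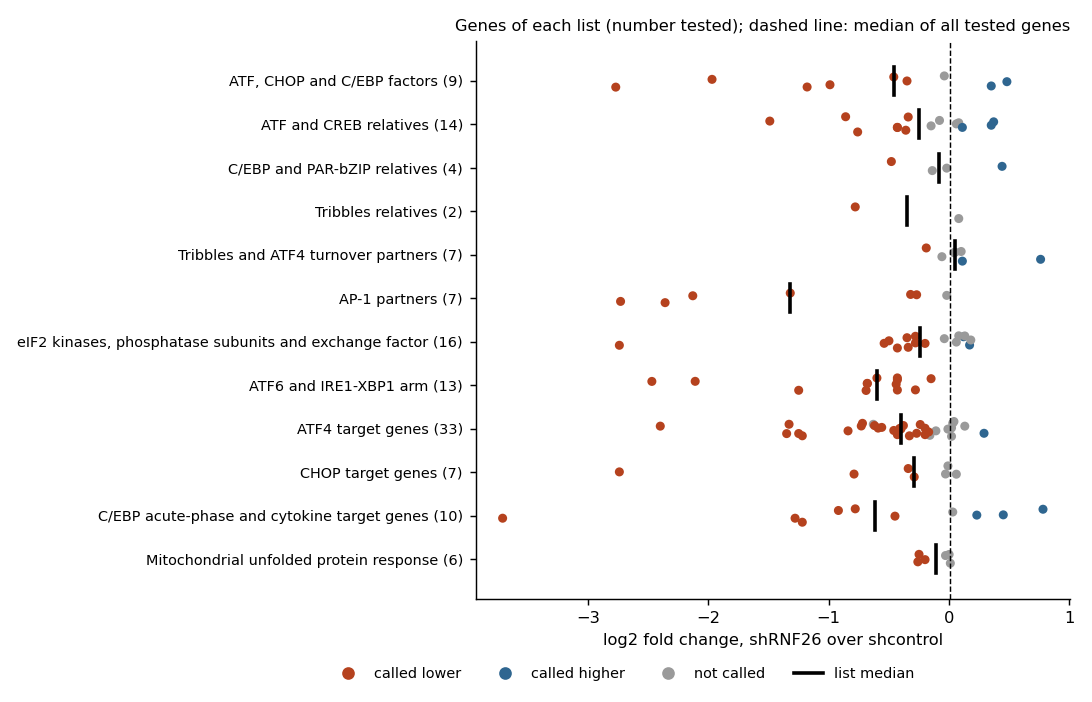
Log2 fold change of shRNF26 over shcontrol for the tested genes of each list, 1 point a gene, with the list median as a black bar. The dashed line is the median of all tested genes, 0.01. Medians of the AP-1 partners (-1.32), the ATF6 and IRE1-XBP1 arm (-0.60) and the ATF4 targets (-0.40) lie left of that line under each scaling. That of the C/EBP and PAR relatives (-0.08) turns to 0.01 with total-count scaling, where the median of all tested genes is 0.0987.

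Genes whose profile over the 6 libraries was most like a member's were found by the Euclidean distance between centred log2 CPM values, among 10006 genes of at least 10 CPM. With 2 groups of libraries, this distance mostly reads the size of the group difference. For ATF3 they were G0S2 (distance 0.225), IFI6 (0.258) and JUN (0.277). For ATF4 they were ZFP36L1 (0.0937), MAP1LC3B (0.0972) and AREG (0.107). For DDIT3 they were DKK1 (0.218), GEM (0.231) and LAMB3 (0.247), for TRIB3 IL6R (0.126), CCND1 (0.149) and AKAP12 (0.169), and for CEBPB RNF126 (0.0624), ARHGDIA (0.0653) and DVL1 (0.0777).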

How the data were processed

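The 6 RNA sequencing libraries of cells labelled A498 were made with a directional kit, per the labels' protocols. The authors deposited 1 table with 61541 gene rows and 2 blank rows (0% of counts, not used). The deposited values are whole-number raw counts with library totals that differ, although the table's name says FPKM. The genome build was hg19, per the submitters' processing notes. The aligner, counter, annotation and strand setting were not given in the sources used here. Gene symbols were matched for 61369 IDs in a gene name table and for 159 more in GENCODE 29. Overlaps and exon lengths also came from GENCODE 29 (GRCh38), without coordinates.

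Genes with a mean of at least 1 CPM (14766, with 99.7% of counts) were fitted with edgeR 4.0.16 in R 4.3.3 (quasi-likelihood, TMM factors 1.031 to 1.033 in shRNF26 and 0.966 to 0.971 in shcontrol libraries), with Benjamini-Hochberg adjustment over all of them. The SE was taken as the log2 fold change divided by the root of the F statistic. Replicates differed by more than sampling noise (chi-square per degree of freedom 2.31 to 4.98) and counted as 6 samples. One count was worth 0.0555 to 0.0599 CPM. The steps were tested on simulated data. Alternatives were other scalings, filters on low counts, DESeq2 1.42.0, limma 3.58.1 on log2(CPM + 1), a robust fit, a replicate block and leaving out each library. From each list up to 4 called genes with the largest change were named by rule, and other listed genes named in the text were chosen after their values were seen. The level of 1 kidney marker is not reported here. The members, lists and rules were chosen with earlier results of these data known.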

Additional observations from a re-analysis of the deposited data

How the results depend on the processing

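Over the 15 alternatives the 9 genes gave 6 called lower and 2 called higher each time. ATF3 ranged from -2.84 to -2.65 on the log2 scale, ATF4 from -1.01 to -0.90, DDIT3 from -2.05 to -1.82, TRIB3 from -1.25 to -1.09, CEBPG from -0.48 to -0.37, CEBPB from -0.43 to -0.26, CEBPD from 0.26 to 0.44 and CEBPA from 0.40 to 0.60. ATF5 turned to 0.05 with total-count scaling, 0.01 with upper-quartile scaling and 0.02 without shcontrol replicate 3 (-0.09 to 0.02 over the left-out libraries), and was called in none of the 15. With total-count scaling the median of all tested genes shifted by 0.0908 on the log2 scale, and with upper-quartile scaling by 0.0534. The cause of the other shifts was not tested.

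Over all tested genes 3332 were called lower and 2785 higher, against 2269 and 4449 with total-count scaling and 2681 and 3742 with upper-quartile scaling. Genes called at least 2-fold lower numbered 354, against 602 without a filter on low counts and 202 at a minimum mean of 5 CPM, where more or fewer low genes enter. Shares over all tested genes were 22.6% lower and 18.9% higher. As counts and not shares, with tested numbers above by list, 73 distinct genes of the pathway lists were called lower and 12 higher. Those called higher became 24 with total-count scaling, 19 with upper-quartile scaling and 7 to 12 over the left-out libraries, with 7 without shcontrol replicate 2 and 7 without shRNF26 replicate 1. All 56 alternative values of the ratios kept their direction.

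With the replicate number as a block, 3479 genes were called lower and 2935 higher, and 6 and 2 of the 9 genes. Deviations of libraries with the same number correlated at 0.011, -0.0272 and 0.0934, and shRNF26 replicate 2 correlated best with shcontrol replicate 1 (0.118). With 3 libraries a group, these correlations cannot decide whether libraries of the same number were paired.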

Other observations

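Some relatives of the 9 genes were too low to test. HLF, a PAR factor, had 1 count in the 3 shRNF26 libraries together and 11 in the 3 shcontrol libraries. BATF2 had 28 counts in shRNF26 libraries and 65 in shcontrol libraries, of which 35 were in 1 library. The ATF4 target ALDH1L2 had 17 counts in shRNF26 libraries and 47 in shcontrol libraries. NUPR1, another stress target, had 1 count in each group.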
